A study of Homo sapiens with 160 samples.

Results

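Potassium channel genes were taken as the rows of the deposited expression table whose symbol starts with KCN, goes on with letters and ends in digits. These are the names given to pore-forming subunits of potassium channels and to their accessory subunits. The rule found 95 of the 29273 genes in the table. By symbol stem, 40 were classed as voltage-gated subunits, 16 as inward rectifiers and 15 as channels with 2 pore domains per subunit. A further 8 were classed as channels activated by calcium or sodium, KCNU1 among them by its name only, and 16 as accessory subunits. The RNA came from BEAS-2B cells, a wild-type human bronchial epithelial line immortalised with viral genes, which were kept without serum overnight once confluent. The cells received mometasone (100 nM, a glucocorticoid), indacaterol (100 nM, a long-acting agonist of the beta-2 adrenoceptor), carbachol (10 µM, an agonist of muscarinic acetylcholine receptors), each pair of these, all 3 agents, or vehicle, for 1, 2, 6 or 18 h, which makes 32 groups. Of 160 labelled samples, 150 were matched to a column of the table by name, in 24 groups of 5 libraries, 6 groups of 4 and 2 groups of 3 (mometasone and all 3 agents at 18 h). Per its title, the study asked how carbachol and indacaterol change each other's effects on gene expression. All groups are of 1 cell line, and the labels do not say whether replicates came from separate cultures, so a p-value here reflects how far these libraries differ, and part of that may be technical.

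Potassium channels let potassium leave the cell down its gradient, which keeps the membrane potential negative, and in airway epithelium that potential is part of the driving force for chloride secretion and so for the liquid on the airway surface. Voltage-gated channels are built from alpha subunits that open on depolarisation, while inward rectifiers and 2-pore channels conduct near the resting potential and calcium-activated channels open when cytosolic calcium rises. The KCNG and KCNS alpha subunits form no channel alone and modify the current of other voltage-gated subunits, and the KCNAB, KCNE, KCNIP and KCNMB proteins are accessory subunits that change the gating, trafficking or stability of the pore.

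RefSeq sequence of the 250 bases before the transcription start (GRCh38.p14, plus strand in each case) is shown for 4 of the genes whose values moved with treatment, KCNIP3 (chr2:95346408-95346657) and KCNJ2 (chr17:70169282-70169531), higher with mometasone, and KCNG2 (chr18:79797688-79797937) and KCNK1 (chr1:233613856-233614105), higher with indacaterol. Both strands of windows from 250 bases before to 50 bases after the start were searched for TGACG, the core of the cyclic AMP response element, for TGACGTCA, the whole element, which contains TGACG, and for AGAACA followed by any 3 bases and TGTTCT, a palindrome bound by the glucocorticoid receptor. Capitals mark a TGACG core, which in KCNK1 reads on the minus strand.
KCNIP3: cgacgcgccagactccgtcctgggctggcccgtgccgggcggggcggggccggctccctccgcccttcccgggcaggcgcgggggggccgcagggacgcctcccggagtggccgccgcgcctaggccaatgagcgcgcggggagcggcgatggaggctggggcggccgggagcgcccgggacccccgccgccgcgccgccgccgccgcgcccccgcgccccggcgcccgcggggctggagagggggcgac
KCNJ2: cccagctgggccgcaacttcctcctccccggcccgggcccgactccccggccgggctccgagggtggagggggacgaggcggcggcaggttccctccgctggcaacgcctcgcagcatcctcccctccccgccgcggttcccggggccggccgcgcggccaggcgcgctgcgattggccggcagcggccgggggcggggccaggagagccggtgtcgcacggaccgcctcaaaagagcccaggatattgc
KCNG2: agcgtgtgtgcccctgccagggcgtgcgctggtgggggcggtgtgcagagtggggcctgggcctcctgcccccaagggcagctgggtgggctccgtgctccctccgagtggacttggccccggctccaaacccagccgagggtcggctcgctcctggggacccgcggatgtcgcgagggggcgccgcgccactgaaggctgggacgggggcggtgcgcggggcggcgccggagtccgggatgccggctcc
KCNK1: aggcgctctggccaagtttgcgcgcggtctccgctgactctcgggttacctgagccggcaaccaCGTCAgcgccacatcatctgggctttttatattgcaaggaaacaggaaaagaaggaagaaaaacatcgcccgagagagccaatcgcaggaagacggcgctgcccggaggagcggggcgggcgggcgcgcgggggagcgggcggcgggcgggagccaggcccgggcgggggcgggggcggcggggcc
The core in KCNK1 begins 186 bases before the start. Windows were found for 25 of the 36 potassium channel genes that passed the filter given below, 43 windows in all, of which 7 held TGACG, and none held TGACGTCA or the palindrome. For the genes that were called in a comparison with vehicle, 2 of 13 windows (9 genes) held TGACG, that of KCNK1 and, 20 bases after the start, 1 of KCNK2. Over all 35116 RefSeq promoter windows, 24.6% held TGACG, 1.85% held TGACGTCA and 0.00285% held the palindrome. The KCNG2 window lies outside the GENCODE span of the gene given below. The KCNIP3 and KCNJ2 windows lie inside the spans of their genes, that of KCNIP3 far from the first base of its span. A match describes these letters and not a bound site.

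Between 12521 and 13239 genes per library reached a value of 1, and 5.88% to 28.3% of their signal came from mitochondrial genes, with 6 libraries above 20%, all of them replicate 1. The label of airway epithelium was met in part by its markers: 7 of 8 epithelial markers passed the filter, with KRT8 at 101 to 548 and CDH1 at 0.32 to 7.84, but EPCAM stayed at or below 0.85 in every library. KRT17 was at 76.4 to 4951, KRT18 at 131 to 720 and KRT7 at 1.78 to 104, while KRT5 (0 to 7.38) and KRT19 (0 to 2.18) were low. All 5 mesenchymal markers passed, with VIM at 1099 to 2179, COL1A1 at 272 to 888 and CDH2 at 22.4 to 54.7. ACTA2 was at 3.12 to 22.6 and COL1A2 at 0.78 to 3.48. The lowest CDH2 value lay above the highest CDH1 value. Of the other markers, 2 of 4 for blood (CD68 and PTPRC), 0 of 3 endothelial and 0 of 3 neural markers passed. The part of all these markers in the results was not tested.

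A gene was tested where its value reached 1 in at least 5 of the 150 libraries, which 36 of the 95 potassium channel genes did, against 14827 of the 29273 genes in the table. By class, these were 11 of 40 voltage-gated subunits, 10 of 16 accessory subunits, 6 of 15 channels with 2 pore domains, 5 of 16 inward rectifiers and 4 of 8 calcium- or sodium-activated channels. The values are those the authors call TPM, a scale that divides by transcript length, and levels are compared between genes on that scale only. In the 19 vehicle libraries, 23 of the 36 genes had a mean of at least 1 and 4 had a mean of at least 5.

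KCNAB2, a beta subunit that binds the cytoplasmic side of voltage-gated channels, was highest, with a lowest, median and highest value of 15.1, 21.1 and 28 over vehicle libraries. Its lowest value lay above the highest value of any other potassium channel gene in vehicle, 10.2 for KCNC4. KCNK1, a weakly conducting background channel also named TWIK, had 4.44, 6.54 and 8.23. KCNMA1, the pore of the large-conductance (BK) calcium-activated channel, which helps hydrate the airway surface, had 3.17, 5.98 and 8.66. BK channels open with both depolarisation and calcium. KCNC4, a fast voltage-gated subunit, had 2.47, 5.59 and 10.2. KCNK6, another 2-pore channel, had 2.82, 4.35 and 9.38. In order of mean level, the ranges of neighbouring genes overlapped in 34 of 35 pairs, all but KCNAB2 and KCNK1, so most of the order is within the spread of the libraries. No potassium channel gene was called between vehicle at 2, 6 or 18 h and vehicle at 1 h (0 of 108 tests with limma, 11 at an unadjusted p below 0.05), where 0.0135%, 0.324% and 0.121% of all genes tested were called and 6.19% of all tests had an unadjusted p below 0.05.

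**Figure D1:**
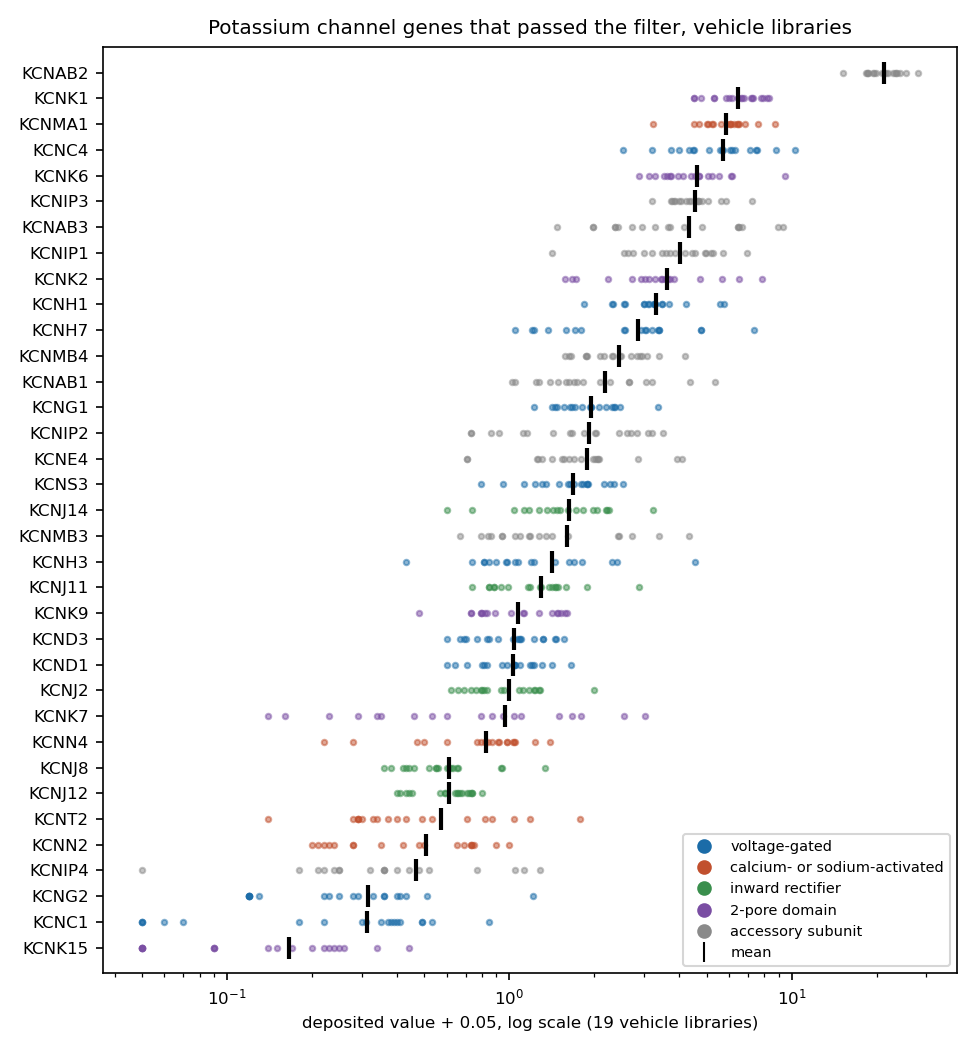
Values of 35 of the 36 potassium channel genes that passed the filter in the 19 vehicle libraries, 1 point a library, on a log scale of the deposited value plus 0.05, coloured by class, with the mean as a bar. KCNAB2 stands above all others and the remaining genes form a continuous order.

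The other 59 genes did not pass, and 52 of them never reached 1 in any library. They included the voltage-gated KCNA1, KCNA2, KCNA3, KCNA4, KCNA5, KCNA6, KCNA7, KCNA10, KCNB2, KCNC2, KCND2, KCNF1, KCNG3, KCNG4, KCNH2, KCNH4, KCNH5, KCNH6, KCNH8, KCNQ1, KCNQ3, KCNQ5, KCNS1, KCNS2, KCNV1 and KCNV2. Among inward rectifiers were KCNJ1, KCNJ3, KCNJ4, KCNJ5, KCNJ6, KCNJ9, KCNJ10, KCNJ13, KCNJ15, KCNJ16 and KCNJ18, and among channels with 2 pore domains KCNK3, KCNK4, KCNK5, KCNK10, KCNK12, KCNK13, KCNK16, KCNK17 and KCNK18. From the class named calcium- or sodium-activated, KCNN1, KCNN3, KCNT1 and KCNU1 were also among them. So were the accessory KCNE1, KCNE2, KCNE3, KCNE5, KCNMB1 and KCNMB2. KCNQ1 and KCNE3, which form the basolateral cyclic AMP-activated channel of many epithelia, were among them, with a highest value of 0.34 for KCNQ1 and 0.38 for KCNE3 in any library. KCNA3 and KCNK18 were listed at 0 in all 150 libraries. Just inside the filter were KCNN2, at 1 or more in 5 libraries, KCNJ12 in 6, KCNK15 in 7 and KCNIP4 in 8, and just outside were KCNJ16 in 3 and KCNJ3 in 2.

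Of the 36 genes tested, 16 were called at an adjusted p below 0.05 in at least 1 of the 28 comparisons of a treatment with vehicle at the same time, 10 of them only higher, 4 only lower and 2 in both directions. Of all genes tested 33% were called at least once, 17.2% only higher, 13.2% only lower and 2.66% in both directions. Calls are from limma on log2(value + 1), with p-values adjusted over all 14827 genes, so log2 changes understate the change of genes with low values. In the order 1, 2, 6 and 18 h, mometasone gave 0, 2, 6 and 7 calls among the 36, where 0.472%, 1.99%, 9.61% and 9.1% of all genes were called. Indacaterol gave 0, 4, 2 and 0, where 1.4%, 3.91%, 1.74% and 0.202% were called. The median log2 change of the 36 was 0.09 with mometasone at 6 h and 0.00 at 18 h, and 0.09 with indacaterol at 2 h, against 0.02, 0.04 and 0.01 over all genes tested.

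With mometasone and indacaterol together the calls were 2, 9, 10 and 8, where 2.44%, 7.65%, 17.7% and 13% of all genes were called. With mometasone and carbachol they were 0, 3, 6 and 9, where 0.742%, 2.21%, 10.2% and 9.88% were called. With all 3 agents they were 2, 5, 9 and 9, where 3.15%, 8.06%, 15.2% and 10.8% were called. With indacaterol and carbachol they were 1, 3, 2 and 0, where 2.4%, 4.45%, 1.99% and 0.0944% were called. Replicate numbers paired the libraries of indacaterol with carbachol and vehicle at all times, and with the number as a block the calls there were 4, 7, 5 and 0. They also paired all 3 agents with vehicle at 2, 6 and 18 h, and at 2 h the block gave 9 calls. The percentages of all genes are from the fit without the block. Those with the block are not given, so the blocked counts cannot be set against them. The other calls above did not use pairing, also where it held. These comparisons share the same vehicle libraries, so their values are given side by side and calls in 2 of them are not independent. In bulk RNA, fewer cells of a kind and less RNA per cell cannot be told apart.

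**Figure D2:**
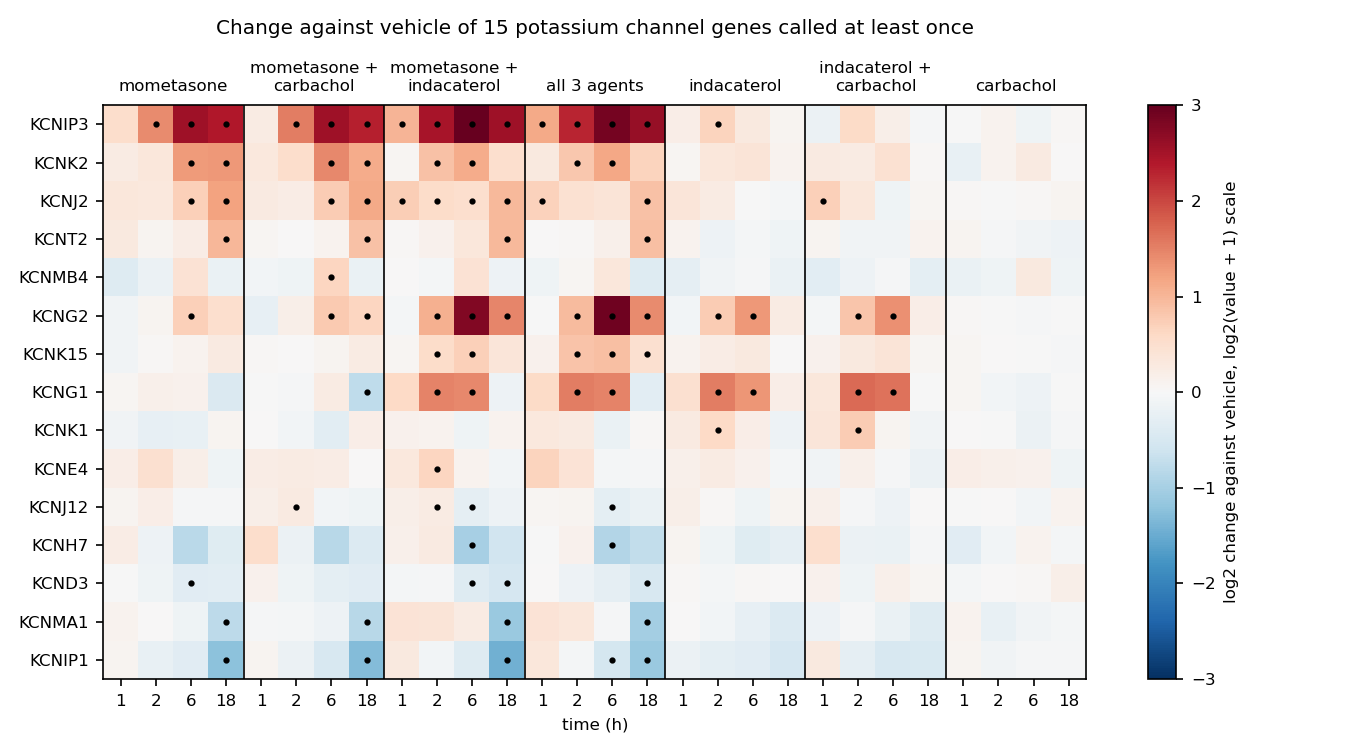
Log2 change against vehicle on the log2(value + 1) scale for 15 of the 16 potassium channel genes called at least once (rows), by treatment and time in hours (columns), with a dot where the adjusted p is below 0.05. KCNIP3 is red throughout the mometasone-containing treatments from 2 h on, KCNG1 and KCNG2 in the indacaterol-containing ones at 2 and 6 h, and the carbachol columns hold no dot.

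KCNIP3 (chromosome 2, 95297304 to 95386083, plus strand in GENCODE 29 on GRCh38), a calcium-binding accessory subunit of KCND channels that is also known as the transcriptional repressor DREAM, had the most calls of the set against vehicle and rose with every mometasone-containing treatment from 2 h on. At 2 h its values were 17.9, 10.6, 11.9, 14.5 and 14.6 in mometasone libraries, against 5.57, 3.78, 5.8, 3.15 and 4.76 in vehicle libraries. At 6 h they were 27, 30.6, 49, 31.2 and 31.9 with mometasone, against 4.54, 4.61, 7.16, 4.35 and 4 with vehicle. At 18 h they were 24.8, 25.6 and 26.9 with mometasone, against 5, 3.69, 3.94 and 3.81 with vehicle. At each of these times every mometasone library lay above every vehicle library. The log2 change was 1.42 (SE 0.21, adjusted p = 1.32e-07) at 2 h, 2.55 (SE 0.21, adjusted p = 5.31e-20) at 6 h and 2.40 (SE 0.25, adjusted p = 8.64e-14) at 18 h. At 1 h KCNIP3 averaged 6.93 ± 2.59 (SD, n = 4) with mometasone and 4.28 ± 0.365 (SD, n = 5) with vehicle, and was not called (log2 change 0.53 (SE 0.22, adjusted p = 0.993)).

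With mometasone and indacaterol together, KCNIP3 was called already at 1 h, with values of 6.57, 18.9, 5.23, 15.5 and 8.06, against 4.17, 4.63, 4.59, 4.28 and 3.73 in vehicle libraries. The groups did not overlap, but the combined libraries differed among themselves, 2 of the 5 being far above the other 3. At 2 h the combination had 27.5, 23, 44.9, 26.1 and 30.1, each above every mometasone library of that time. Indacaterol added to mometasone changed KCNIP3 by 1.05 (SE 0.21, adjusted p = 0.000119) at 2 h, on the log2 scale, and at 6 h by 0.48 (SE 0.21, adjusted p = 0.32), which is not a call. Indacaterol alone gave 11.2, 6.79, 8.44, 6.54 and 6.77 at 2 h, all above vehicle, with a log2 change of 0.67 (SE 0.21, adjusted p = 0.0471). That indacaterol call was lost under 9 of 12 alternatives, with an adjusted p of up to 0.229, among them without replicates 1, 2, 4 or 5. The combination's call at 1 h was lost when only the groups compared were fitted (adjusted p = 0.382). With mometasone and carbachol the log2 change of KCNIP3 was 1.52, 2.54 and 2.34 at 2, 6 and 18 h, and with all 3 agents it was 1.13, 2.29, 2.88 and 2.61 at 1, 2, 6 and 18 h, all called. The 1 h call with all 3 agents was lost without replicate 4 or when only the groups compared were fitted (adjusted p up to 0.332). KCNIP3 shares no exonic bases with another GENCODE gene.

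KCNK2 (chromosome 1, 215005775 to 215237093, plus strand), the mechanosensitive 2-pore channel TREK, rose with mometasone at 6 and 18 h. At 6 h its values were 10.9, 9.22, 18.9, 14.2 and 9.05 in mometasone libraries, against 3.06, 3.24, 7.77, 5.62 and 3.52 in vehicle libraries. At 18 h they were 8.84, 11 and 8.44 with mometasone, against 4.69, 3.66, 3.59 and 1.67 with vehicle. No mometasone value fell within the vehicle range at either time. KCNK2 changed by 1.27 (SE 0.25, adjusted p = 3.2e-05) at 6 h and 1.29 (SE 0.30, adjusted p = 0.00076) at 18 h, and the 18 h call was lost when only the groups compared were fitted (adjusted p = 0.0582). At 6 h the log2 change was 1.44 with mometasone and carbachol, 1.12 with mometasone and indacaterol and 1.16 with all 3 agents. All 3 were called, although 1 library with mometasone and indacaterol, at 7.28, lay within the vehicle range. At 18 h KCNK2 averaged 5.38 ± 2.3 (SD, n = 4) with mometasone and indacaterol and 5.88 ± 1.74 (SD, n = 3) with all 3 agents, against 3.4 ± 1.26 (SD, n = 4) with vehicle. Neither was called, while mometasone and carbachol gave 1.12 (SE 0.27, adjusted p = 0.00153), a call lost when only the groups compared were fitted. The interaction of mometasone and indacaterol on KCNK2 at 18 h was -0.88 (SE 0.39, adjusted p = 1), not a call. At 2 h the calls with mometasone and indacaterol (0.88) and with all 3 agents (0.82) were lost without replicate 1 or without replicate 2, the second also without replicate 3, and both when only the groups compared were fitted (adjusted p up to 0.135).

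KCNJ2 (chromosome 17, 70168673 to 70180048, plus strand), the strong inward rectifier that stabilises the resting potential of muscle and other cells, also rose with mometasone at 6 and 18 h. At 6 h its values were 2.09, 2.23, 2.55, 2.09 and 2 in mometasone libraries, against 1.03, 0.74, 1.22, 1.23 and 0.57 in vehicle libraries. At 18 h they were 3.4, 4.31 and 3.44 with mometasone, against 0.76, 1.94, 0.71 and 0.88 with vehicle. The groups did not overlap at either time. The log2 change was 0.72 (SE 0.16, adjusted p = 0.000433) at 6 h and 1.22 (SE 0.19, adjusted p = 3.02e-07) at 18 h. With mometasone and carbachol it was 0.77 at 6 h, called. At 18 h it was 1.14 with mometasone and carbachol, 0.97 with mometasone and indacaterol and 0.89 with all 3 agents, each called, and the last 2 were lost when only the groups compared were fitted (adjusted p up to 0.19). KCNJ2 also rose earlier. At 1 h it averaged 2.3 ± 1.08 (SD, n = 5) with mometasone and indacaterol, 2.19 ± 0.651 (SD, n = 5) with indacaterol and carbachol and 2.11 ± 0.433 (SD, n = 4) with all 3 agents, against 0.922 ± 0.274 (SD, n = 5) with vehicle. The log2 changes at 1 h were 0.74, 0.72 and 0.70 in that order, all called. Indacaterol alone gave 0.36 (SE 0.16, adjusted p = 0.803) and mometasone alone 0.34 (SE 0.17, adjusted p = 0.993), neither called. All 3 of these 1 h calls were lost when only the groups compared were fitted, that with indacaterol and carbachol also without replicate 4 and that with all 3 agents also without replicate 2 (adjusted p up to 0.287).

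With mometasone and indacaterol KCNJ2 was also called at 2 h (0.55) and 6 h (0.50), with libraries of both times within the vehicle range. Both calls were lost without replicate 1 or without replicate 2, the first also without replicate 4 (adjusted p up to 0.124). KCNT2 (chromosome 1, 196225779 to 196609225, minus strand), a sodium-activated channel, was called at 18 h only, with values of 2.31, 3.59 and 2.4 in mometasone libraries, against 1.13, 1.73, 0.66 and 0.23 in vehicle libraries. The groups did not overlap, but the lowest mometasone value was not far above the highest vehicle value. With mometasone the log2 change was 1.00 (SE 0.27, adjusted p = 0.00551), and it was 0.97 with mometasone and indacaterol, 0.88 with mometasone and carbachol and 0.91 with all 3 agents, each called. In each of these 3 groups 1 library lay within the vehicle range. KCNT2 reached 1 in 32 libraries, 12 of them with mometasone at 18 h, so it came through the filter partly by the groups in which it was high. All 4 of its calls were lost without replicate 4 and when only the groups compared were fitted, and those with carbachol also without replicate 2 (adjusted p up to 0.372). KCNMB4, a beta subunit of the BK channel, was called once, in mometasone with carbachol libraries at 6 h, with 3.43, 4.48, 3.12, 2.99 and 4.89, against 1.52, 2.28, 1.82, 2.11 and 2.44 in vehicle libraries. The groups did not overlap, the log2 change was 0.65 (SE 0.18, adjusted p = 0.00655), and the call was lost without replicate 1 (adjusted p = 0.0576), while mometasone alone gave 0.44 (SE 0.18, adjusted p = 0.115).

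**Figure D3:**
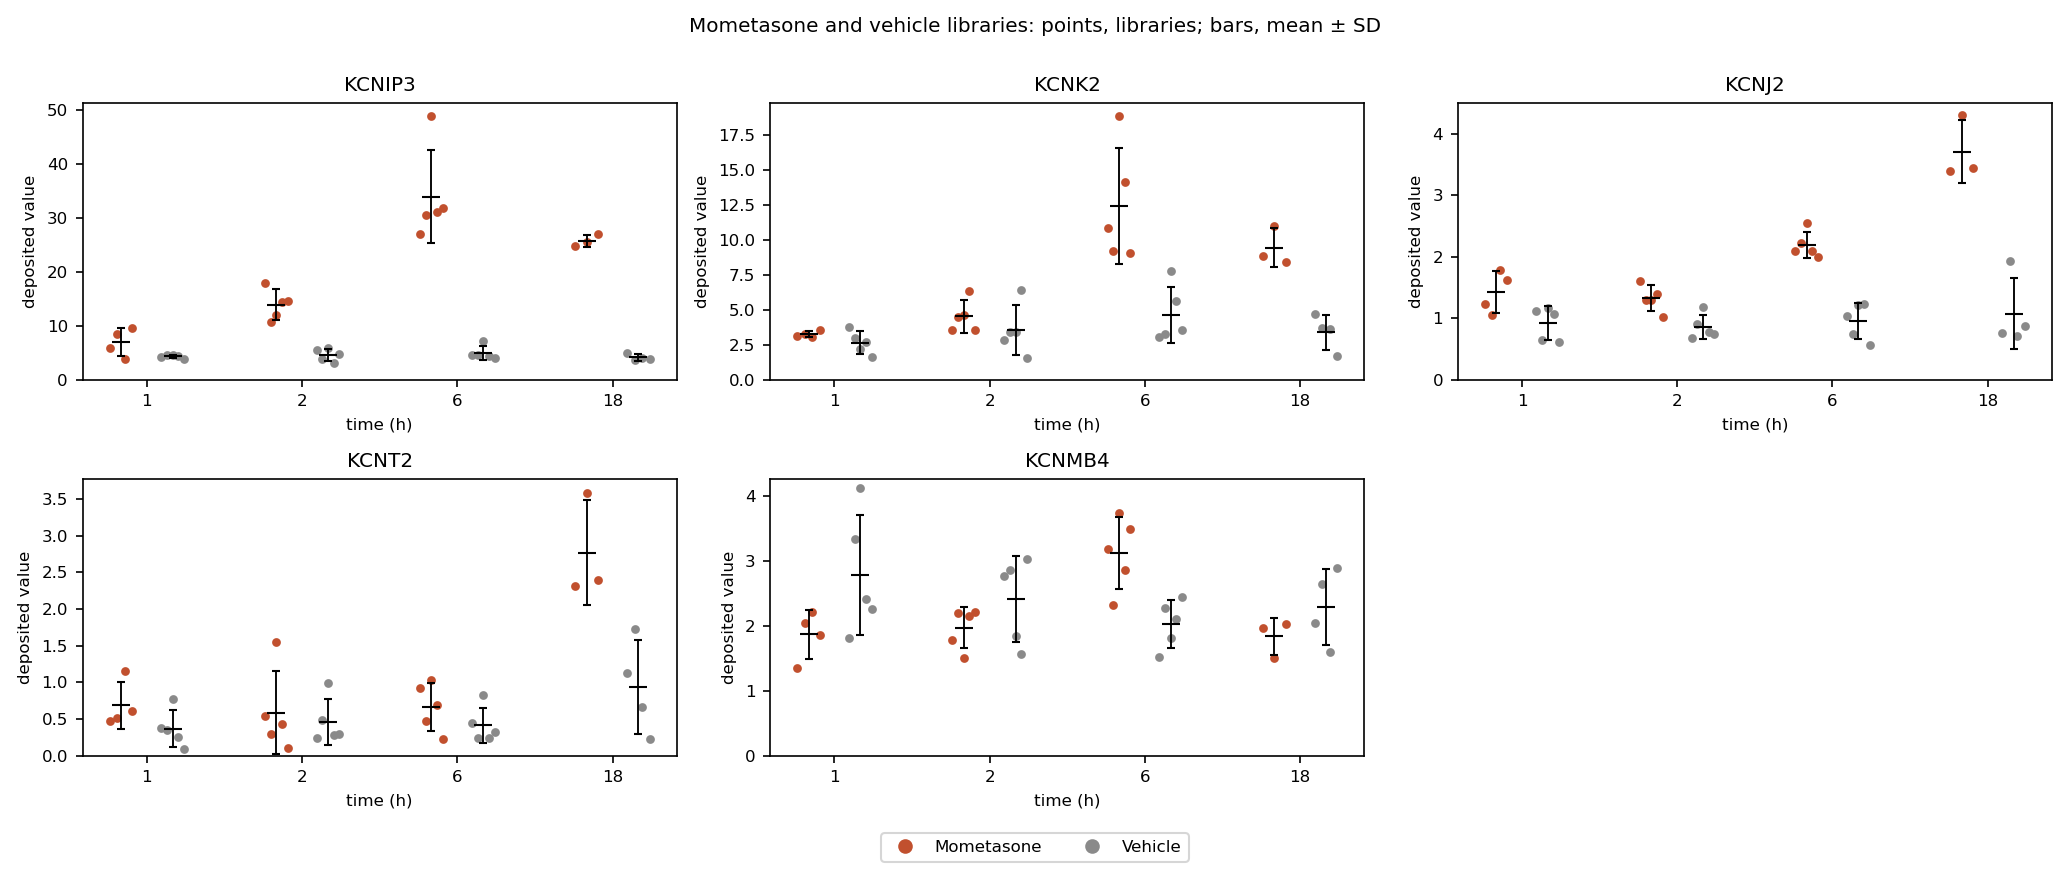
Deposited values of 5 genes in mometasone (left of each pair) and vehicle libraries at 1, 2, 6 and 18 h, 1 point a library, with the mean ± SD. KCNIP3 is separated from 2 h, KCNK2 and KCNJ2 from 6 h and KCNT2 at 18 h, while KCNMB4 was not called with mometasone alone.

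KCNG1 and KCNG2, which encode silent subunits that modify other voltage-gated channels, were the genes that indacaterol raised at both 2 and 6 h. KCNG1 (chromosome 20, 51003656 to 51023129, minus strand) at 2 h had 12.6, 5.72, 4.91, 7.13 and 8.41 in indacaterol libraries, against 2.02, 1.66, 2.29, 1.42 and 2.14 in vehicle libraries. At 6 h it had 6.43, 3.77, 5.16, 6.07 and 7.14 with indacaterol, against 1.4, 1.76, 1.36, 1.61 and 2.25 with vehicle. Every indacaterol library lay above every vehicle library at both times. Its log2 change was 1.54 (SE 0.19, adjusted p = 1.41e-10) at 2 h and 1.31 (SE 0.19, adjusted p = 1.37e-07) at 6 h. At 18 h KCNG1 averaged 2.55 ± 0.874 (SD, n = 5) with indacaterol and 2.04 ± 0.415 (SD, n = 4) with vehicle, and was not called. With mometasone added the level averaged 7.12 ± 1.1 (SD, n = 5) at 2 h and 6.35 ± 1.32 (SD, n = 5) at 6 h, and mometasone alone gave 2.2 and 1.94. Mometasone added to indacaterol changed KCNG1 by -0.06 (SE 0.19, adjusted p = 0.934) at 2 h and 0.13 (SE 0.19, adjusted p = 0.805) at 6 h, neither a call. With indacaterol and carbachol the log2 change was 1.71 at 2 h and 1.63 at 6 h, and with all 3 agents 1.54 and 1.49, all called. At 2 h KRT17, 1 of the 8 epithelial markers, was at 2915 to 4951 in indacaterol libraries and 407.3 to 860.7 in vehicle libraries, without overlap, while the sum of the other 7 was 557 to 933.2 with indacaterol and 573.1 to 1130 with vehicle, with overlap. The part of KRT17 in the indacaterol results was not tested.

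KCNG1 was lower in 1 comparison, mometasone with carbachol at 18 h, with 1.08, 0.51, 0.7 and 0.86, against 1.51, 2.31, 1.9 and 2.42 in vehicle libraries. The groups did not overlap and the log2 change was -0.76 (SE 0.21, adjusted p = 0.00836), but the call was lost without replicate 3 or without replicate 5 (adjusted p up to 0.0709). Mometasone alone at 18 h gave 1.43, 1.22 and 1.04, all below vehicle, with a log2 change of -0.44 (SE 0.23, adjusted p = 0.286), not a call. Of the KCNG1 exons, 7.98% overlap the antisense gene AL050404.1, and since strand use in counting is not given, reads of these stretches cannot be told apart.

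KCNG2 (chromosome 18, 79863668 to 79900184, plus strand) had values near 0 in vehicle and was highest with mometasone and indacaterol together. At 6 h its values were 8.02, 6.23, 5.79, 5.95 and 11.3 with both agents, 2.08, 2.17, 1.1, 1.9 and 2.88 with indacaterol alone, and 1.14, 0.89, 0.76, 1 and 1.21 with mometasone alone, against 0.28, 0.31, 0.07, 0.08 and 0.31 in vehicle libraries. The vehicle libraries were the lowest, each single agent lay above them without overlap, and every library with both agents lay above every library with 1. The log2 change against vehicle at 6 h was 2.77 (SE 0.19, adjusted p = 6.8e-26) with both agents, 1.30 (SE 0.19, adjusted p = 1.33e-07) with indacaterol and 0.73 (SE 0.19, adjusted p = 0.00391) with mometasone. With all 3 agents the values were 7.37, 7.56, 8.18, 7.49 and 10.0 and the log2 change was 2.91 (SE 0.19, adjusted p = 1.42e-27), its largest. On the log2(value + 1) scale, both agents exceeded the sum of the single changes by 0.74 (SE 0.27, adjusted p = 0.823). This interaction is not a call. With a pseudocount of 0.1 in place of 1, the log2 changes were 4.67 with both agents, 2.83 with indacaterol and 1.92 with mometasone. There the change with both agents did not exceed the sum, so the excess depends on the pseudocount. With indacaterol and carbachol the log2 change of KCNG2 was 1.37 at 6 h, and the 6 h rises above were each called. KCNG2 reached 1 in 46 libraries, 36 of them with indacaterol and 31 with mometasone, so it came through the filter by the groups in which it was high.

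At 2 h KCNG2 had 1.39, 0.93, 1.53, 1.66 and 2.1 with both agents and 1.9, 0.74, 0.67, 0.73 and 1.31 with indacaterol, against 0.36, 0.07, 0.17, 0.35 and 0.07 with vehicle. Neither group overlapped with vehicle, but the 2 treatments overlapped with each other. Log2 changes were 1.06 (SE 0.19, adjusted p = 5.47e-06) with both and 0.76 (SE 0.19, adjusted p = 0.00473) with indacaterol. The second was lost without replicate 1, whose library was the highest and had 27.7% mitochondrial signal (adjusted p up to 0.0997). At 18 h the values were 2.77, 0.8, 3.88 and 3.37 with both agents and 0.59, 0.8, 0, 0.78 and 0.41 with indacaterol, against 0.2, 0.24, 0.18 and 0.38 with vehicle. Both agents together still lay above vehicle (log2 change 1.48 (SE 0.21, adjusted p = 1.04e-08)), while indacaterol alone was not called (0.25 (SE 0.20, adjusted p = 1)). Indacaterol added to mometasone gave 0.98 (SE 0.23, adjusted p = 0.0297) at 18 h, which was lost under 8 of 12 alternatives, among them without replicates 2, 4 or 5 (adjusted p up to 0.96). It was also lost without replicate 1, of which neither compared group has a library. KCNG2 was also called with all 3 agents at 2 h (0.95) and 18 h (1.42), and with indacaterol and carbachol at 2 h (0.84), the last lost when only the groups compared were fitted (adjusted p = 0.082). With mometasone and carbachol, KCNG2 was called at 6 h (0.78) and at 18 h (0.65), the second lost under 6 of 12 alternatives, among them without replicates 2, 4 or 5 (adjusted p up to 0.279).

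KCNK1 (chromosome 1, 233614004 to 233672512, plus strand) rose with indacaterol at 2 h, with 8.34, 6.7, 10.4, 9.39 and 8.62 in indacaterol libraries, against 6.11, 5.92, 5.79, 4.45 and 4.71 in vehicle libraries. Every indacaterol library was above the vehicle range, the log2 change was 0.60 (SE 0.13, adjusted p = 0.000419), lost when only the groups compared were fitted (adjusted p = 0.0635), and with carbachol added to indacaterol it was 0.76 (SE 0.13, adjusted p = 1.86e-06). Where mometasone was also given, KCNK1 had 6.76, 5.35, 5.45, 5.57 and 6.41 at 2 h, which overlaps with vehicle, and mometasone alone gave 4.16, 3.85, 5.06, 5.41 and 3.48. Mometasone added to indacaterol lowered KCNK1 at 2 h (log2 change -0.48 (SE 0.13, adjusted p = 0.0086)), a call lost without replicate 3, without replicate 4 or when only the groups compared were fitted (adjusted p up to 0.131). By 6 h KCNK1 was at 8.8 ± 0.677 (SD, n = 5) with indacaterol and 7.57 ± 0.764 (SD, n = 5) with vehicle, and was not called.

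KCNK15 (chromosome 20, 44745780 to 44752313, plus strand), a 2-pore subunit of the TASK group, was called only where mometasone and indacaterol were both given. At 2 h its values were 1.51, 0.45, 0.97, 0.57 and 1.77 with all 3 agents and 0.75, 0.44, 0.64, 0.78 and 0.51 with mometasone and indacaterol, against 0.2, 0.04, 0.1, 0 and 0.19 with vehicle. At 6 h they were 1.04, 0.84, 1.24, 0.68 and 2.13 with all 3 agents and 1.39, 0.67, 0.88, 0.4 and 1.25 with mometasone and indacaterol, against 0.15, 0.04, 0.29, 0.09 and 0.17 with vehicle. No treated library of these groups fell within the vehicle range, but the treated libraries differed several-fold among themselves. The log2 change at 6 h was 0.90 (SE 0.12, adjusted p = 1.71e-09) with all 3 agents and 0.72 (SE 0.12, adjusted p = 1.39e-06) with both, and at 2 h 0.85 (SE 0.12, adjusted p = 1.35e-08) and 0.55 (SE 0.12, adjusted p = 0.000439). Indacaterol alone at 6 h gave 0.41, 0.44, 0.43, 0.09 and 0.68, not a call (0.29 (SE 0.12, adjusted p = 0.415)). The interaction of mometasone and indacaterol on KCNK15 was 0.33 (SE 0.17, adjusted p = 1) at 6 h, so the difference between the combination and its parts was not called. KCNK15 reached 1 in 7 libraries, all of them with both agents, so it was tested only because it was high there. At 18 h the call with all 3 agents (0.48) was lost without replicates 2, 3 or 4 (adjusted p up to 0.177), and 19.5% of its exons overlap RIMS4 on the opposite strand.

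KCNE4, an accessory subunit that inhibits several voltage-gated channels, was called once, with mometasone and indacaterol at 2 h, at 2.93, 2.99, 3.01, 2.1 and 2.68, against 1.51, 1.2, 1.96, 1.75 and 0.66 in vehicle libraries. All 5 treated libraries lay above vehicle, yet the lowest treated library was close to the highest vehicle library. For KCNE4 the log2 change was 0.65 (SE 0.21, adjusted p = 0.0277), and the call was lost without replicates 1, 2, 3 or 5 (adjusted p up to 0.226).

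**Figure D4:**
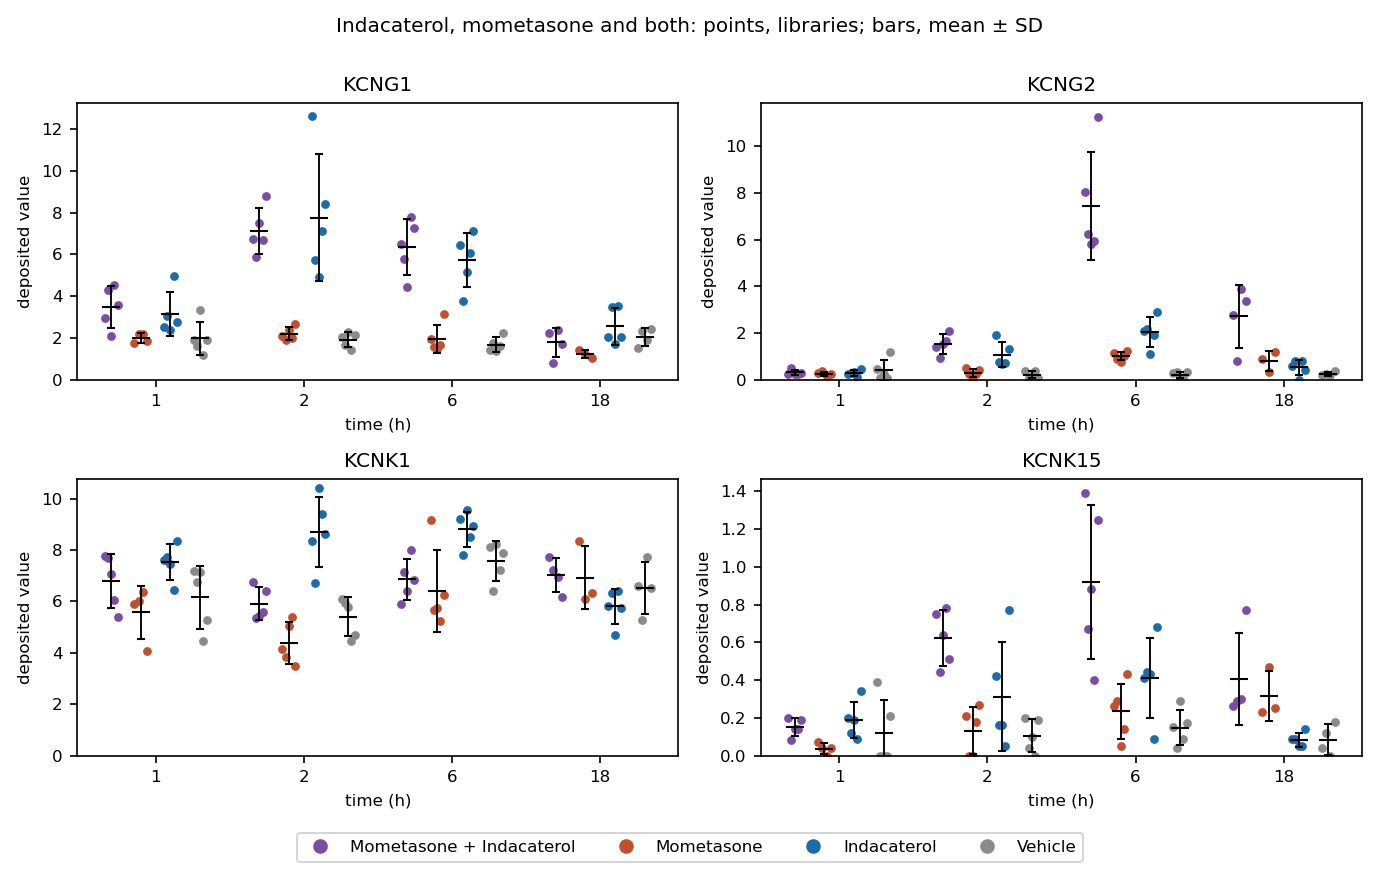
Deposited values of KCNG1, KCNG2, KCNK1 and KCNK15 at 1, 2, 6 and 18 h with mometasone and indacaterol, mometasone, indacaterol and vehicle, in that order from left to right, 1 point a library, with the mean ± SD. KCNG1 is high in both indacaterol-containing groups at 2 and 6 h, KCNG2 is highest with both agents at 6 h, and KCNK1 is high with indacaterol alone at 2 h.

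KCNIP1 and KCNMA1 were lower at 18 h with every mometasone-containing treatment. KCNIP1 (chromosome 5, 170353487 to 170736632, plus strand), like KCNIP3 a calcium-binding accessory subunit of KCND channels, had 0.77, 1.24 and 0.86 in mometasone libraries at 18 h, against 2.94, 4.13, 2.57 and 5.14 in vehicle libraries. Libraries with mometasone and indacaterol had 0.75, 0.46, 0.99 and 0.64 at 18 h. All of these lie below the lowest vehicle library. The log2 change at 18 h was -1.24 (SE 0.23, adjusted p = 1.07e-05) with mometasone, -1.43 (SE 0.21, adjusted p = 1.6e-08) with mometasone and indacaterol, -1.31 (SE 0.21, adjusted p = 3.11e-07) with mometasone and carbachol and -1.11 (SE 0.23, adjusted p = 9.06e-05) with all 3 agents. None of these 4 calls was lost under the 12 alternatives. At 6 h mometasone gave 2.68 ± 0.483 (SD, n = 5), against 3.7 ± 1.00 (SD, n = 5) with vehicle, which was not called. The call with all 3 agents at 6 h (-0.53) was lost without replicates 1, 2 or 4 or with no filter (adjusted p up to 0.19). KCNIP3 and KCNIP1, which bind the same pore subunits, moved in opposite directions at 18 h in the same libraries.

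KCNMA1 (chromosome 10, 76869601 to 77638369, minus strand) had 2.03, 3.01 and 2.77 in mometasone libraries at 18 h, against 5.55, 7.56, 3.17 and 5.17 in vehicle libraries. With mometasone and indacaterol it had 2.08, 1.07, 3.07 and 1.61, with mometasone and carbachol 2.84, 2.72, 2.14 and 2.2 and with all 3 agents 1.38, 1.93 and 2.98. None of these overlaps with vehicle, although 1 vehicle library, at 3.17, lies close to the treated ones. KCNMA1 changed on the log2 scale by -0.78 (SE 0.20, adjusted p = 0.00252) with mometasone, -1.10 (SE 0.18, adjusted p = 6.13e-07) with mometasone and indacaterol, -0.83 (SE 0.18, adjusted p = 0.0003) with mometasone and carbachol and -1.03 (SE 0.20, adjusted p = 2.56e-05) with all 3 agents. At 6 h KCNMA1 averaged 6.75 ± 1.7 (SD, n = 5) with mometasone and indacaterol and 4.45 ± 0.364 (SD, n = 5) with indacaterol. Mometasone added to indacaterol gave a rise (0.48 (SE 0.16, adjusted p = 0.0359)) and at 18 h a fall (-0.69 (SE 0.17, adjusted p = 0.00205)). The 6 h call was lost under 8 of 12 alternatives, among them without replicates 1, 2, 3 or 4 (adjusted p up to 0.195), and the 18 h fall without replicate 3 (adjusted p up to 0.153). All 4 falls against vehicle were lost when only the groups compared were fitted, that with mometasone also without replicate 2 or with each time fitted alone (adjusted p up to 0.194). At 18 h the summed value of the 8 epithelial markers was 358.1 to 462.7 in mometasone libraries and 1009 to 1652 in vehicle libraries. Without KRT17 it was 280.7 to 327.8 with mometasone and 486 to 923.1 with vehicle. The sum of the 5 mesenchymal markers was 1807 to 2181 in mometasone libraries and 2406 to 2540 in vehicle libraries. Their part in the 18 h results was not tested.

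KCND3 (chromosome 1, 111770662 to 111989155, minus strand), a pore subunit of the A-type current that KCNIP proteins bind, had 0.28, 0.21, 0.22 and 0.18 with mometasone and indacaterol at 18 h, against 0.86, 0.8, 0.64 and 0.65 in vehicle libraries. At 6 h it had 0.66, 0.62, 0.54, 0.52 and 0.3 with mometasone and indacaterol and 0.55, 0.65, 0.51, 0.73 and 0.48 with mometasone, against 1.26, 0.62, 1.41, 1.01 and 0.78 with vehicle. The groups were apart at 18 h and overlapped at 6 h. Log2 changes were -0.51 (SE 0.12, adjusted p = 0.000833) at 18 h and -0.39 (SE 0.11, adjusted p = 0.00423) at 6 h with mometasone and indacaterol, -0.47 (SE 0.13, adjusted p = 0.00572) at 18 h with all 3 agents, and -0.33 (SE 0.11, adjusted p = 0.0278) at 6 h with mometasone. The 6 h calls were lost without replicate 3 and when only the groups compared were fitted, that with mometasone also without replicate 1 (adjusted p up to 0.314). The call with all 3 agents was lost without replicate 2 or replicate 3 (adjusted p up to 0.09). Mometasone alone at 18 h gave 0.41, 0.41 and 0.35, all below vehicle, and was not called (-0.32 (SE 0.13, adjusted p = 0.116)).

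KCNH7 (chromosome 2, 162371407 to 162838730, minus strand), an ERG-type voltage-gated subunit, was lower at 6 h, with 0.5, 1.03, 1.21, 1.1 and 0.46 in mometasone with indacaterol libraries, against 3.35, 1.66, 4.73, 2.5 and 1.75 in vehicle libraries. No treated library reached the vehicle range, the log2 change was -0.99 (SE 0.31, adjusted p = 0.0127), lost without replicate 1 (adjusted p = 0.122), and with all 3 agents -0.88 (SE 0.31, adjusted p = 0.0343), lost without replicates 1, 2, 3 or 4 (adjusted p up to 0.204). Of its exons, 3.8% overlap GCA on the opposite strand, which had a mean value of 17.0. KCNJ12, an inward rectifier almost identical in sequence to KCNJ18, so that reads may be divided between them, was higher at 2 h and lower at 6 h. KCNJ12 reached 1 in 6 libraries, all of them with mometasone, so it was tested only because of treated groups. It had 0.78, 0.83, 1.4, 0.94 and 0.93 with mometasone and indacaterol at 2 h, against 0.69, 0.54, 0.69, 0.75 and 0.68 with vehicle. At 6 h it had 0.37, 0.33, 0.27, 0.33 and 0.19 with both agents, against 0.54, 0.63, 0.67, 0.38 and 0.59 with vehicle. Neither time showed overlap of the groups, though all values are low. It changed by 0.24 (SE 0.08, adjusted p = 0.0328) at 2 h and -0.27 (SE 0.08, adjusted p = 0.00606) at 6 h, and with mometasone and carbachol at 2 h 0.26 (SE 0.08, adjusted p = 0.0408). All 3 agents at 6 h gave -0.28 (SE 0.08, adjusted p = 0.00328), with 1 library at 0.39 within the vehicle range. The 2 h calls were lost under 7 and 8 of 12 alternatives (adjusted p up to 0.359), among them without replicates 2, 3 or 5, and the second also without replicate 1. The 6 h call with both agents was lost without replicate 5 (adjusted p = 0.0779).

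**Figure D5:**
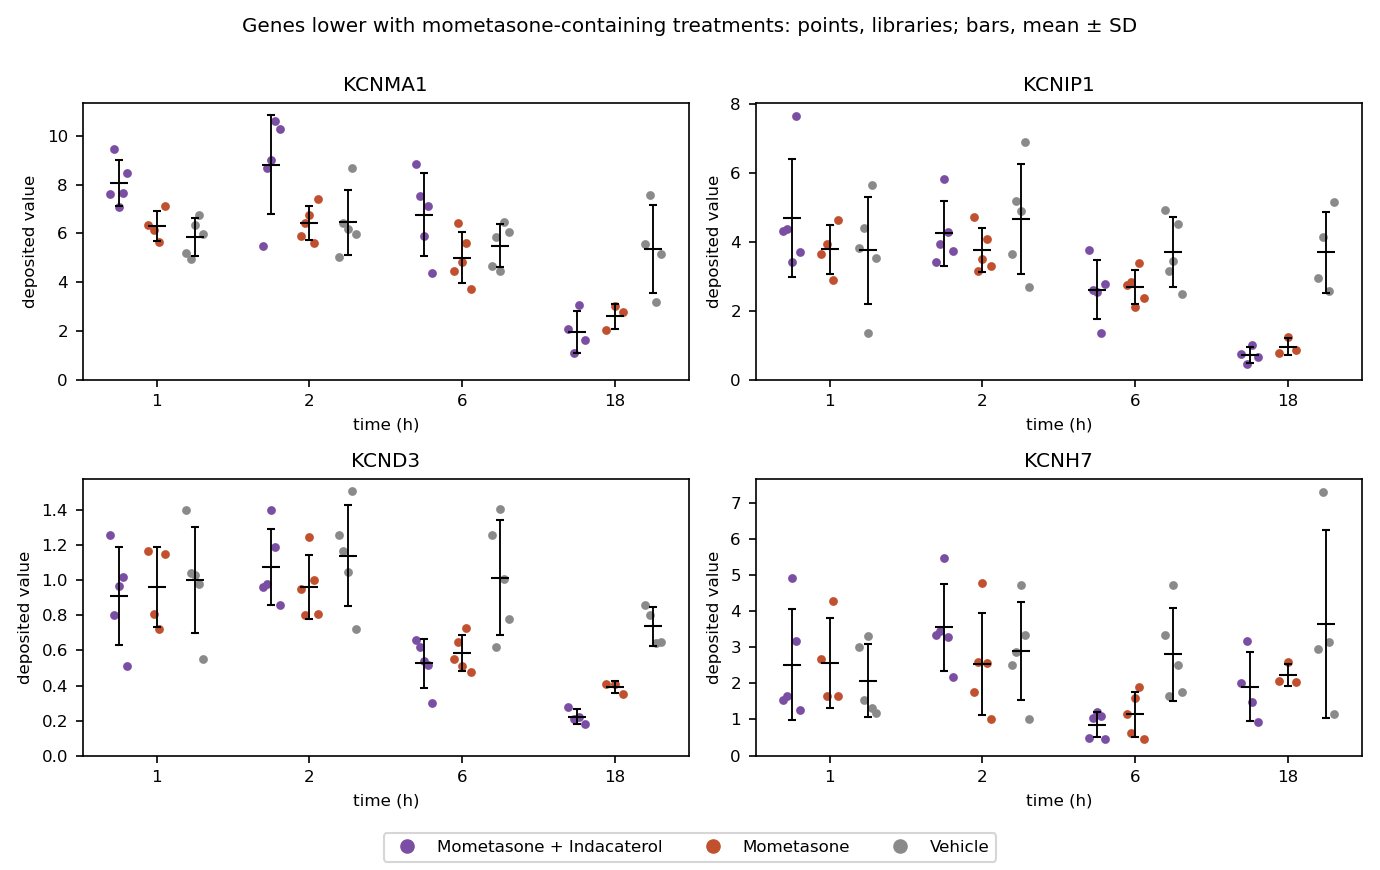
Deposited values of KCNMA1, KCNIP1, KCND3 and KCNH7 at 1, 2, 6 and 18 h with mometasone and indacaterol, mometasone and vehicle, in that order from left to right, 1 point a library, with the mean ± SD. KCNMA1 and KCNIP1 are below vehicle at 18 h and KCNH7 with both agents at 6 h.

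Adding mometasone to indacaterol, in the order 1, 2, 6 and 18 h, gave 1, 3, 9 and 9 calls among the 36 genes, where 1.14%, 4.16%, 11.5% and 10.5% of all genes tested were called. With the replicate number as a block the first of these counts was 2, and it is a comparison in which the numbers paired the libraries. The percentage of all genes called with the block is not given. Among the calls at 6 h were KCNG2, KCNIP3, KCNJ2, KCNK2, KCNK15 and KCNMA1 higher, and KCND3 and KCNH1 lower. Of these, KCNG2 and KCNK15 came through the filter by groups in which they were high. KCNH1, a voltage-gated subunit named for the fly mutant ether-a-go-go, had 2.97, 2.4, 3.27, 2.54 and 3.47 with both agents, against 4.06, 3.86, 5.42, 4.66 and 4.45 with indacaterol, and was not called in any comparison with vehicle. Its log2 change was -0.48 (SE 0.17, adjusted p = 0.0447), lost under 7 of 12 alternatives, among them without any 1 of the 5 replicates (adjusted p up to 0.196). In KCNH1 36.9% of the exonic bases overlap AC096636.1 on the opposite strand and 16.1% AL590132.1 on the same strand, so its values are uncertain. The calls of KCNJ2, KCNK15 and KCNK2 at 6 h were each lost without replicate 1 and at least 1 other replicate, with an adjusted p of up to 0.15, 0.145 and 0.208 in that order.

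Adding indacaterol to mometasone gave 0, 4, 3 and 1 calls, all higher, where 1.44%, 4.73%, 3.14% and 0.175% of all genes tested were called. They were KCNG1, KCNG2, KCNIP3 and KCNK15 at 2 h, the same without KCNIP3 at 6 h, and KCNG2 at 18 h. Of these, KCNK15 was tested only because it was high with both agents, and KCNG2 came through the filter by the groups in which it was high. The KCNK15 call was lost at 2 h without replicate 3 (adjusted p = 0.0624) and at 6 h when only the groups compared were fitted (adjusted p = 0.104). For KCNG1 the log2 change was 1.34 (SE 0.19, adjusted p = 2.05e-08) at 2 h and 1.33 (SE 0.19, adjusted p = 6.28e-08) at 6 h, and for KCNG2 0.98 (SE 0.19, adjusted p = 6.41e-05) at 2 h and 2.05 (SE 0.19, adjusted p = 3.25e-16) at 6 h. The interaction of mometasone and indacaterol was called for 0 of the 36 genes at any time with limma, with 6 of 144 tests at an unadjusted p below 0.05 (2.85% of the tests of all genes), where 0.0742%, 0.405%, 0.216% and 0.0674% of all genes were called at 1, 2, 6 and 18 h. The smallest adjusted p of these interactions was 0.823, for KCNG2 at 6 h.

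Whether an effect differed between times was tested for 3 treatments after their values had been seen, as the effect against vehicle at 6 h minus that at 2 h and at 18 h minus that at 6 h. With mometasone and indacaterol, 2 of the 36 genes were called between 6 and 2 h, where 7.53% of all genes tested were called, and 4 between 18 and 6 h, where 2.23% were called. KCNG2 changed by more at 6 h than at 2 h, by 1.71 (SE 0.27, adjusted p = 4.59e-07) on the log2 scale, and by less at 18 h than at 6 h, by -1.30 (SE 0.28, adjusted p = 0.00161). As stated above, KCNG2 came through the filter by the groups in which it was high. With mometasone, 1 gene (KCNIP3) was called between 6 and 2 h and 0 between 18 and 6 h (limma, 6 at an unadjusted p below 0.05), where 1.31% and 0.654% of all genes were called. With indacaterol 0 were called in either difference (limma, 2 at an unadjusted p below 0.05 in each), where 1.51% and 0.196% were called.

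Carbachol alone gave no call among the 36 genes at any time with limma, and 0 of 144 tests had an unadjusted p below 0.05 (1.44% of the tests of all genes), where 0.0809%, 0.027%, 0% and 0.00674% of all genes tested were called at 1, 2, 6 and 18 h. Replicate numbers paired carbachol with vehicle libraries at 2, 6 and 18 h, and those of the interaction given below at 2 and 18 h. The tests in this paragraph did not use that pairing, so the lack of calls does not show that carbachol had no effect. KCNG1 averaged 1.74 ± 0.271 (SD, n = 5) with carbachol and 1.91 ± 0.358 (SD, n = 5) with vehicle at 2 h, and KCNIP3 4.41 ± 1.05 (SD, n = 5) with carbachol and 4.93 ± 1.27 (SD, n = 5) with vehicle at 6 h. The interaction of indacaterol and carbachol was called for 0 of the 36 genes with limma, with 2 of 144 tests at an unadjusted p below 0.05 (3.33% of the tests of all genes), where 0%, 0.00674%, 0% and 0% of all genes were called. For KCNG1 at 2 h it was 0.25 (SE 0.27, adjusted p = 1), and for KCNK1 0.18 (SE 0.18, adjusted p = 1).

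The 20 tested genes that were never called against vehicle had log2 changes between -0.72 and 0.71 over the 28 comparisons, and their smallest adjusted p was 0.0554. That p belonged to KCNC1, a fast voltage-gated subunit, in mometasone with carbachol libraries at 6 h, with 0.5, 1.08, 0.36, 0.73 and 0.88, against 0.44, 0.01, 0.25, 0 and 0 in vehicle libraries. KCNC1 reached 1 in 10 libraries, 9 of them with mometasone and 0 with vehicle, so it came through the filter by treated groups. KCNN4, the intermediate-conductance calcium-activated channel of secretory epithelia, had 0.16, 0.37, 0.14, 0.25 and 0 with all 3 agents at 6 h, against 0.79, 0.82, 0.55, 0.45 and 0.86 with vehicle, with a log2 change of -0.52 (SE 0.20, adjusted p = 0.0663). KCNC4 had a log2 change of 0.71 (SE 0.23, adjusted p = 0.0633) with indacaterol and carbachol at 2 h. In these 3 the treated mean differed from vehicle by more than 0.5 on the log2 scale without passing the threshold. So it did in KCNAB3, by -0.72 with indacaterol and carbachol at 1 h (mean 2.28, against 4.80 with vehicle). KCNK7 changed by -0.502 with mometasone at 1 h, which makes 5 of the 20. Replicate numbers paired the libraries in the comparisons named here for KCNN4, KCNC4, KCNAB3 and KCNK7. These tests did not use that pairing, so the lack of a call does not show that these genes were unchanged. The beta subunits KCNAB1, KCNAB2 and KCNAB3, the KCNIP subunits KCNIP2 and KCNIP4, and KCNMB3, a beta subunit of the BK channel, were among the 20. KCNAB2, the highest of all, stayed between 13.5 and 33 over the 150 libraries. The voltage-gated KCND1, KCNH1, KCNH3 and KCNS3, the inward rectifiers KCNJ8, KCNJ11 and KCNJ14, the 2-pore KCNK6, KCNK7 and KCNK9, and KCNN2, a small-conductance calcium-activated channel, complete them. KCNMB3 shares 37.9% of its exonic bases with PIK3CA on the opposite strand, so its values are uncertain.

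Genes that work with potassium channels were counted in 3 further lists. Of 14 partners of potassium channels, 9 were tested, and mometasone gave 1, 1, 3 and 3 calls at 1, 2, 6 and 18 h, where 0.472%, 1.99%, 9.61% and 9.1% of all genes were called. SGK1 was higher at 1, 2 and 6 h, NEDD4L and CALM2 were lower at 6 and 18 h, and CALM3 was lower at 18 h. NEDD4L, a ubiquitin ligase that removes channels from the membrane, averaged 18.1 ± 2.75 (SD, n = 5) with mometasone and 49.2 ± 4.74 (SD, n = 5) with vehicle at 6 h, a log2 change of -1.41 (SE 0.11, adjusted p = 2.84e-21). SGK1, a kinase that restrains NEDD4L and raises channel number, averaged 249 ± 58.4 (SD, n = 5) with indacaterol and 15.6 ± 6.02 (SD, n = 5) with vehicle at 1 h, a log2 change of 3.95 (SE 0.29, adjusted p = 3.14e-23), in a comparison where 1.4% of all genes were called. Of 18 genes of ion pumps, cotransporters and their regulators, 16 were tested. Mometasone gave 0, 0, 1 and 3 calls among these at the same times, the 3 at 18 h (ATP1B1, FXYD5 and WNK4) being lower. With indacaterol at 2 h, where 3.91% of all genes were called, 1 was higher, ATP1B3, a beta subunit of the sodium pump, at 207 ± 48.2 (SD, n = 5) with indacaterol and 128 ± 22.2 (SD, n = 5) with vehicle. Of 18 chloride and other cation channels, 11 were tested, and mometasone gave 0, 1, 3 and 1 calls at the same times, all higher. They were the sodium channel subunit SCNN1A at 2, 6 and 18 h and the chloride channels CFTR and BEST1 at 6 h. The median log2 change with mometasone at 6 h was 0.05 for the partners and 0.05 for the pumps, cotransporters and their regulators. It was 0.12 for the other channels, against 0.02 over all genes tested. SCNN1A averaged 28.4 ± 7.45 (SD, n = 3) with mometasone and 1.5 ± 0.413 (SD, n = 4) with vehicle at 18 h, a log2 change of 3.54 (SE 0.33, adjusted p = 1.59e-16).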

How the data were processed

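RNA from BEAS-2B cells was sequenced, and the values deposited by the authors are a normalised signal per gene, which the authors call TPM. Their column sums run from 847288.5 to 1498421, so they were treated as a length-scaled signal and not as TPM, although the test planned for TPM was kept. Per the submitters' processing notes, bcl2fastq 2.17.1.14, STAR 2.4.2a and the GRCh38 build were used, while these sources do not give the quantifier, its annotation or the use of strand. The values are not counts, so depth is unknown and no counting interval is given. A total of 10 further columns were not used, 4 that the authors marked as excluded and 6 headed 8 h, a time the labels do not have.

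Genes at 1 or more in at least 5 of 150 libraries were fitted with limma 3.58.1 in R 4.3.3 on log2(value + 1), with a coefficient for each of 32 groups, 118 residual degrees of freedom and a mean-variance trend. P-values were adjusted by the Benjamini-Hochberg method over all genes in each comparison at each time, with a call at an adjusted p below 0.05. The fit was tested on simulated data. Potassium channel genes and the other lists were chosen with earlier results of these data known. Values per library are given for those called against vehicle, ranges in vehicle for the 5 highest, and the rest are listed by symbol, but some genes included in the counts are not reported here. KCNH1, KCNC1, KCNN4, the changes of KCNAB3 and KCNK7 and the single values of KCNC4 were picked out after their values were seen. Tables were read with Python 3.11.15, pandas 2.3.3 and numpy 2.4.6 and drawn with matplotlib 3.10.9; gene positions and overlaps come from GENCODE 29.

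Replicate numbers were taken to pair libraries where the deviations of every pair of same-numbered libraries from their group means correlated above 0.1, with at least 3 pairs. This held in 3 of 11 comparisons at 1 h, 7 of 12 at 2 h, 3 of 12 at 6 h and 8 of 12 at 18 h, with correlations between -0.389 and 0.865. Alternatives were a pseudocount of 0.1, no filter, each time fitted alone, only the compared groups fitted, a replicate block, median-ratio scaling, leaving out libraries above 20% mitochondrial signal, and leaving out each replicate number.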

Additional observations from a re-analysis of the deposited data

Results flagged for a closer look

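Libraries that stood apart from the others of their group were looked for by Dixon's ratio in the 89 groups of 4 or 5 libraries whose values the report gives, and 5 were found. Chance alone flags about 1 in 20 groups. At 6 h, replicate 3 was the highest for KCNIP3 in mometasone libraries, at 49.01, and in vehicle libraries, at 7.16. Replicate 3 also stood apart for KCNJ12 with mometasone and indacaterol at 2 h, at 1.4, and for KCNJ2 with vehicle at 18 h, at 1.94, while KCNG1 with mometasone at 6 h was highest in replicate 5, at 3.12.

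An effect against vehicle differed between times by a test of the difference itself in 7 cases, all chosen for testing after the values were seen (limma, adjusted over all genes tested). The mometasone effect on KCNIP3 was larger at 6 h than at 2 h by 1.14 on the log2 scale (adjusted p = 0.0219). The effect of mometasone with indacaterol at 6 h minus that at 2 h was 1.71 for KCNG2 (adjusted p = 4.59e-07) and -0.50 for KCNJ12 (adjusted p = 0.000356). Its effect at 18 h minus that at 6 h was -1.60 for KCNG1 (adjusted p = 3.95e-05), -1.30 for KCNG2 (adjusted p = 0.00161), -1.04 for KCNIP1 (adjusted p = 0.0187) and -1.34 for KCNMA1 (adjusted p = 5.55e-05). These differences share the 6 h libraries and, in part, the vehicle libraries. KCNJ12 was tested only because of libraries with mometasone, and KCNG2 came through the filter by the groups in which it was high. The KCNJ12 call with mometasone and indacaterol at 2 h included the outlying 1.4 and was lost under 7 of 12 alternatives.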

How the results depend on the processing

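Counts below are calls among the 36 potassium channel genes summed over the times of a comparison, under 12 alternatives. With the replicate number as a block they came to 16 for indacaterol with carbachol against vehicle (6 without the block), 39 for all 3 agents (25 without), 34 for mometasone added to indacaterol (22 without), 15 for indacaterol added to mometasone (8 without) and 2 for the interaction of indacaterol and carbachol (0 without), both at 1 h, where the numbers did not pair the libraries. Where pairing held and the block moved a count by over 1.5 times, that count stands in the report, and the block ended none of the 129 single calls. With only the compared groups fitted, mometasone added to indacaterol gave 13, and with no filter the interaction of mometasone and indacaterol gave 1, at 2 h. The cause of these shifts was not tested. Shares of all genes called under these alternatives are not given, so the counts do not show a shift particular to potassium channel genes. Leaving out each replicate number in turn gave 13 to 16 calls for mometasone, 4 to 7 for indacaterol, 24 to 29 for mometasone with indacaterol, 15 to 18 for mometasone with carbachol, 5 to 8 for indacaterol with carbachol, 19 to 26 for all 3 agents, 14 to 19 for mometasone added to indacaterol (14 without replicate 3) and 7 to 8 for indacaterol added to mometasone. Of the 129 single calls none changed sign under any alternative. Those no longer called numbered 41 with only the compared groups fitted, 12 with each time fitted alone, 9 with a pseudocount of 0.1, 7 with no filter, 6 with median-ratio scaling, 5 without the libraries above 20% mitochondrial signal, and 14 to 24 without 1 replicate number. The differences between times were not recomputed under these alternatives. Depth is unknown, and changes of genes with values below 1 are understated by the pseudocount of 1.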
